A study of Mus musculus with 217 samples.

Results

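The effect of mutant huntingtin (m*Htt*) on the striatum of 12-month-old mice was examined in 19 of the 217 RNA-Seq libraries of the series, 9 from LacQ140 mice and 10 from WT + IPTG mice. The libraries were taken by tissue, age, genotype and treatment as labelled, without use of any measured value. LacQ140 mice carry 1 *Htt* allele with a knocked-in expanded CAG repeat and lac operators in its promoter (Hdh(LacO-140Q/+)) and a β-actin-LacIR transgene, which expresses the lac repressor throughout the body. They received IPTG from E5 to 12 months of age, which keeps the repressor off the operators, so that the mutant allele was expressed for life. WT + IPTG mice (Hdh(LacO-+/+)) carried the same transgene on the same C57BL/6 background (C57BL/6J in the study's methods) and received IPTG over the same time. Both groups therefore share the repressor and the drug, and the comparison asks what lifelong expression of the mutant allele changes. The LacQ140 group held 4 females and 5 males, and the WT + IPTG group 5 females and 5 males. The other groups of the study had m*Htt* lowered by the absence of IPTG from conception (LacQ140_A) or by its withdrawal at 2 or 8 months (LacQ140_2M, LacQ140_8M), or were WT mice without IPTG.

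The striatum is the main input nucleus of the basal ganglia, and most of its neurons are GABAergic spiny projection neurons (SPNs). SPNs of the direct pathway carry the dopamine D1 receptor, and those of the indirect pathway carry the D2 receptor, the adenosine receptor *Adora2a* and the peptide enkephalin. Both receive glutamate from cortex and thalamus and integrate it with dopamine through cAMP and calcium signalling, and they are the neurons most vulnerable in Huntington's disease, in which an expanded polyglutamine tract in huntingtin disturbs transcription.

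Between 34639024 and 47893389 estimated counts per library were assigned to genes in LacQ140 mice, and between 35695916 and 50478438 in WT + IPTG mice. Levels are given as CPM, counts scaled to a common library size with TMM factors, as the lowest to the highest mouse of a group with the median. Fold changes are LacQ140 over WT + IPTG on the log2 scale, with the standard error (SE) and the Benjamini-Hochberg adjusted p of edgeR's quasi-likelihood test over all genes with at least 1 count in the 12-month striatum. A gene was said to rise or fall when its adjusted p was under 0.05 and its change was at least 1.2-fold in either direction. This is called the 20% bound below. By this bound 3340 of 35386 genes (9.44%) were called, 1620 risen (4.58%) and 1720 fallen (4.86%). Of the 14551 genes with a mean of at least 1 CPM, 2600 (17.9%) were called, 1143 risen (7.86%) and 1457 fallen (10.0%). In 675 of these expressed genes (4.64%) no LacQ140 mouse overlapped with a WT + IPTG mouse, with LacQ140 above in 237 (1.63%) and below in 438 (3.01%).

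Markers of other tissue stood out in 4 libraries. Summed over 9 markers, cortical excitatory neurons reached 368.3 CPM in LacQ140 M2 and 118.04 CPM in WT + IPTG F5, against group medians of 49.6 and 46.4 CPM. Choroid plexus markers reached 428.6 CPM in WT + IPTG F5 and 346.2 CPM in WT + IPTG M2, and markers of blood 1962 CPM in WT + IPTG M1. WT + IPTG F3 was next in cortical markers, at 88.5 CPM, and is not among the 4. Without it alone 3260 genes were called. Without these 4 libraries 2833 of 35183 genes (8.05%) were called, 1228 risen and 1605 fallen, and 2552 of them were among the 3340. Most list counts that moved by over 1.5 times without these 4 libraries are given below in both forms. Of 41 counts of only 1 or 2 genes over the lists, 23 moved by over 1.5 times with some single library left out.

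**Figure D1:**
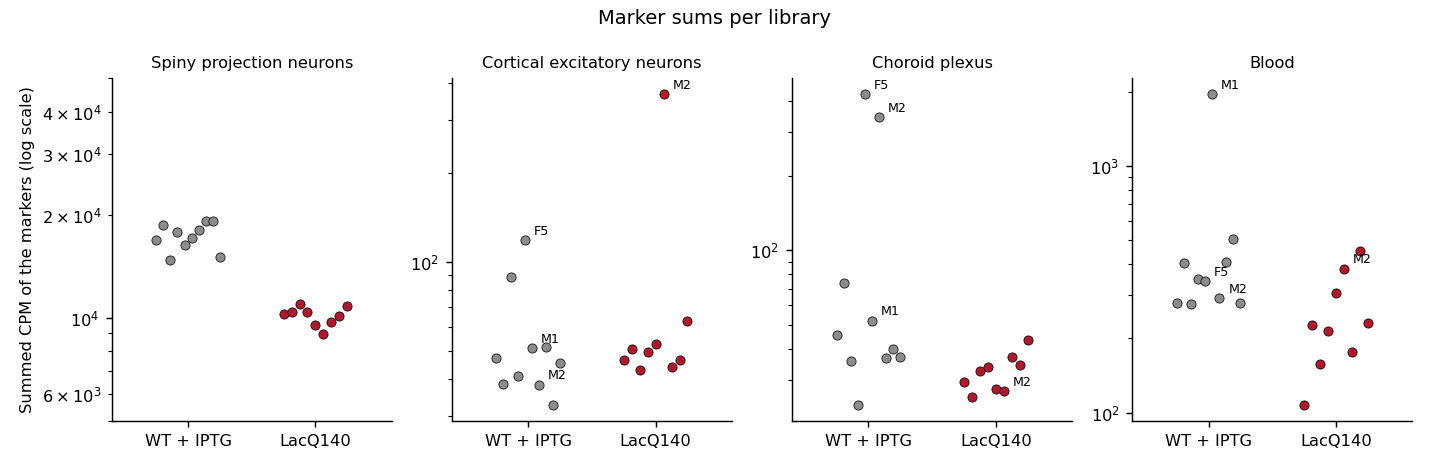
Summed CPM of marker genes (log scale, with a separate range in each panel) in each of the 10 WT + IPTG and 9 LacQ140 libraries, 1 point per mouse, with 4 libraries named that stand apart. Every LacQ140 library lies below every WT + IPTG library in the panel of SPN markers, while single libraries stand far above their group in the other panels.

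*Htt*, the targeted gene (ENSMUSG00000029104, chromosome 5, 34761740 to 34912534 on GRCm38) was at 96.7 to 123.5 CPM (median 113.2) in LacQ140 and at 125.1 to 162.7 CPM (median 148.8) in WT + IPTG mice, and the groups did not overlap (log2 fold change -0.40, SE 0.069, adjusted p = 9e-06). The counts do not separate the mutant from the normal allele. The 250 bases before the annotated start of 4 genes are shown because their groups of genes are described below: the gene that carries the operators, a receptor of indirect pathway SPNs that fell, a postsynaptic scaffold gene that fell and a polycomb gene that rose. The sequences are those of the reference (RefSeq, GRCm38.p6) at chr5:34761490-34761739 (plus strand), chr10:41072291-41072540 (minus), chr13:93303507-93303756 (plus) and chr11:119040914-119041163 (minus), without the inserted operators, read 5′ to 3′ toward the start. Capitals mark the cAMP response element TGACGTCA in *Htt*, *Gpr6* and *Cbx8*, and, in *Homer1*, the ETS motif CCGGAAG, which stands on the other strand and reads CTTCCGG here.
Htt: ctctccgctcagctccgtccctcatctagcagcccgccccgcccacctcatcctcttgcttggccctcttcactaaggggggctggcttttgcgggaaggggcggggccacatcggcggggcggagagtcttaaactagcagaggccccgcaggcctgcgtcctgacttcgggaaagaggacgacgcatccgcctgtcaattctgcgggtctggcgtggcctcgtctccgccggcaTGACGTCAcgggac
Gpr6: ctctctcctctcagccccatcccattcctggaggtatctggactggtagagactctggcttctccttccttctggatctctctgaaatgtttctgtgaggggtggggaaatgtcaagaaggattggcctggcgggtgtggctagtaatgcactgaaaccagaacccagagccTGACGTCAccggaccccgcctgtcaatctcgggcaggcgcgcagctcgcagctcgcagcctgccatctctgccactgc
Homer1: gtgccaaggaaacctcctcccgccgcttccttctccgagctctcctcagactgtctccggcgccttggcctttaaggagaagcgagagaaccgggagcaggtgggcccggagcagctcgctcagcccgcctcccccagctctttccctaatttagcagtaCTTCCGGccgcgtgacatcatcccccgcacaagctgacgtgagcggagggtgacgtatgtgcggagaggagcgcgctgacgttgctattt
Cbx8: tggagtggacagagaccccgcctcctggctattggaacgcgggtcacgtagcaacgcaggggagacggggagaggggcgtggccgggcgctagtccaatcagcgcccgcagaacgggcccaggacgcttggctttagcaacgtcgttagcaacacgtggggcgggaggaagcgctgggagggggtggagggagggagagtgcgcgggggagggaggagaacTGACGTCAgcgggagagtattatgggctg

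Over the promoters of 10947 expressed genes, of which 822 had risen and 1032 fallen, motifs were searched on both strands of the same 250 bases. TGACGTCA was found in 2.79% of all promoters, 3.28% of those of risen genes and 2.33% of those of fallen genes. CCGGAAG was found in 13.0% of all, but in 7.54% of risen and 6.78% of fallen genes, and in 14.3% of genes that were not called. The share was 3.7% in the 135 striatum-enriched genes with a promoter in the table. These shares are a description, without a test of their difference. The CCAAT box stood in 36.1% of all, risen and fallen promoters alike, and the shares of TATAAA (6.17% of all), CACGTG (8.39%), TGANTCA (3.95%) and GGGCGG (59.1%) moved by less than 2.5 percentage points in either direction. The NRF1 motif, a palindrome searched in 1 fixed form, stood in 1.61% of all, 1.95% of risen and 0.484% of fallen promoters, the last being 5 of 1032. None of the motifs is contained in another, and a match is only a run of letters, not a bound site.

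Genes whose expression sets the striatum apart from the cortex fell in most cases. These genes were defined in WT mice without IPTG, whose levels enter no fold change of the comparison, as genes at least 2 log2 units higher in striatum than in cortex at both 6 and 12 months. Of 207 such genes, 131 fell (63.3%) and 4 rose in LacQ140 mice, with a median log2 fold change of -0.48, against 0.01 over all expressed genes. The 4 that rose, named here after their values were seen, were *Onecut2*, a homeodomain factor of developing neurons (0.55), *Gpr149*, an orphan receptor (0.37), and the predicted genes *Gm38575* (0.32) and *Gm14164* (0.52). Without the 4 libraries 127 fell and 3 rose.

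The share of fallen genes followed the difference between the tissues over the whole range. Among expressed genes at least 2 log2 units lower in striatum than in cortex, 2.42% of 165 fell and 29.1% rose. Among genes between 1 unit lower and equal, 4.69% of 5354 fell and 9.08% rose, and among those up to 1 unit higher 9.61% of 6179 fell and 5.78% rose. With a difference of 1 to 2 units 25.5% of 1425 fell, with 2 to 3 units 47.9%, and with 3 or more units 65.6% of 151. The last of these classes had a median log2 fold change of -0.52. The fallen shares were within 1.5 percentage points of these without the 4 libraries except in the last class (62.3%), but the risen share of the genes lowest in striatum was 14.5% without them (LacQ140 M2, the library with the highest cortical sum, is 1 of the 4). In whole tissue, fewer SPNs and less of an RNA per SPN cannot be told apart, here or for any marker below.

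**Figure D2:**
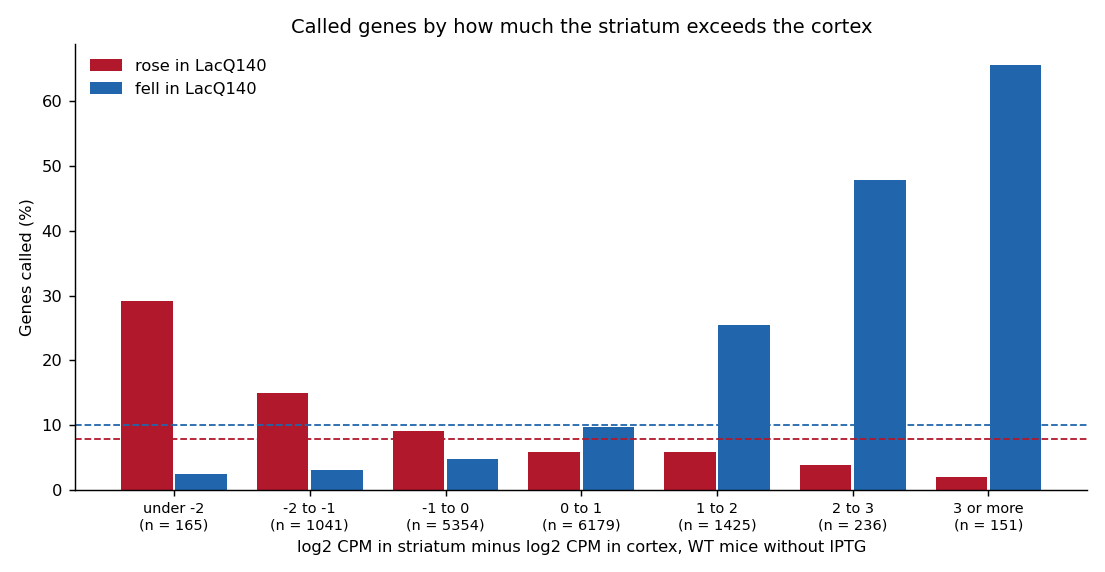
Percent of expressed genes that rose (red) or fell (blue) in LacQ140 mice, by the difference of log2 CPM between striatum and cortex in WT mice without IPTG (mean of 6 and 12 months). Dashed lines give the shares over all expressed genes, 7.86% risen and 10.0% fallen, and the blue bars climb from 2.42% to 65.6% from left to right.

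Markers shared by SPNs of both pathways, which stood at high levels in every library as the label striatum requires, fell almost throughout. Of 22 listed genes, 18 fell and 1 rose (*Gpr149*), with a median log2 fold change of -0.58. Their summed level was 8988 to 10994 CPM (median 10240.2) in LacQ140 and 14790 to 19199.9 CPM (median 17475) in WT + IPTG mice, without overlap. *Scn4b*, the β4 sodium channel subunit that speeds recovery from inactivation (chromosome 9, 45138395 to 45154152), was at 554.9 to 766.7 CPM (median 613.3) in LacQ140 and 1488 to 1992 CPM (median 1752) in WT + IPTG mice (log2 fold change -1.48, SE 0.064, adjusted p = 4.7e-29). The lowest WT + IPTG mouse was thus well above the highest LacQ140 mouse. *Ppp1r1b*, which encodes DARPP-32, the phosphatase inhibitor that integrates dopamine and glutamate signals, was at 1367 to 1913 CPM (median 1721) and 2252 to 3828 CPM (median 2904), also without overlap (log2 fold change -0.78, SE 0.073, adjusted p = 1.4e-13). *Pde10a*, the cAMP and cGMP phosphodiesterase of SPNs, fell by 1.10 on the log2 scale, from 1213 to 1586 CPM (median 1378) to 548.4 to 791.8 CPM (median 616.8). *Bcl11b*, the SPN transcription factor CTIP2, was at 146.1 to 181.4 CPM (median 165.3) in LacQ140 and 184.6 to 249.1 CPM (median 231.9) in WT + IPTG mice (log2 fold change -0.45, SE 0.064, adjusted p = 8.5e-08), and the factor gene *Foxp1* had a log2 fold change of -0.41 (adjusted p = 2e-07, SE 0.06), with overlap between the groups.

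Indirect pathway markers fell in 5 of 7 genes measured, and direct pathway markers in 3 of 8, with median log2 fold changes of -0.92 and -0.20. The difference between the lists was not tested. *Penk*, the precursor of enkephalin (chromosome 4, 4133531 to 4138819), was at 683.3 to 890.3 CPM (median 733.6) in LacQ140 and 1421 to 2308 CPM (median 1865) in WT + IPTG mice (log2 fold change -1.30, SE 0.076, adjusted p = 2.8e-22). *Adora2a*, the adenosine receptor that raises cAMP in these neurons, was at 172.3 to 213.6 CPM (median 195.7) against 347.8 to 476.98 CPM (median 402.2) (log2 fold change -1.06, SE 0.065, adjusted p = 1.9e-21). *Drd2*, the D2 receptor, was at 150.9 to 208.002 CPM (median 191.4) against 242.02 to 388.1 CPM (median 346.2) (log2 fold change -0.86, SE 0.07, adjusted p = 5.9e-16). No LacQ140 mouse reached the range of WT + IPTG mice for any of the 3. *Gpr6*, a constitutively active receptor of these neurons whose promoter is shown above, fell by 0.92 on the log2 scale, and *Upb1*, the last enzyme of pyrimidine breakdown, by 1.69.

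In the direct pathway, *Drd1*, the D1 receptor (chromosome 13, 54051183 to 54055705), was at 120.8 to 168.2 CPM (median 147.9) in LacQ140 and 205.9 to 287.3 CPM (median 257.9) in WT + IPTG mice, without overlap (log2 fold change -0.82, SE 0.079, adjusted p = 4.9e-13). *Chrm4*, the muscarinic M4 receptor that opposes D1 signalling, was at 23.9 to 34.7 CPM (median 31.2) and 32.3 to 59.3 CPM (median 49.02), with slight overlap (log2 fold change -0.69, SE 0.094, adjusted p = 2.8e-08). The peptide genes of the same neurons had smaller fold changes. *Pdyn*, the precursor of dynorphin, was at 129.4 to 171.2 CPM (median 142.98) and 156.5 to 251.6 CPM (median 186.01) (log2 fold change -0.36, SE 0.075, adjusted p = 0.00018), and *Tac1*, the precursor of substance P, at 174.7 to 241.3 CPM (median 223.7) and 185.6 to 321.05 CPM (median 228.96), which did not pass the test (log2 fold change -0.10, SE 0.074, adjusted p = 0.48). *Tac1* had log2 fold changes of 0.16 in females and -0.33 in males, of which the latter was called (adjusted p = 0.0071 by edgeR), and *Pdyn*, also called in males, of -0.28 and -0.44. The differences between the sexes did not pass edgeR's test (adjusted p = 0.19 and 0.87). Over the list 2 members fell within females and 5 within males, with medians of -0.12 and -0.32, and 0 differed between the sexes by edgeR (1 more positive and 1 more negative in females at an unadjusted p under 0.05). The factor *Isl1*, which specifies these neurons, had a log2 fold change of 0.15 (adjusted p = 0.17, SE 0.072). The only risen member was *Eya1*, a transcriptional coactivator gene named after its value was seen (0.31), and without the 4 libraries 0 rose by edgeR (2 higher at an unadjusted p under 0.05).

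**Figure D3:**
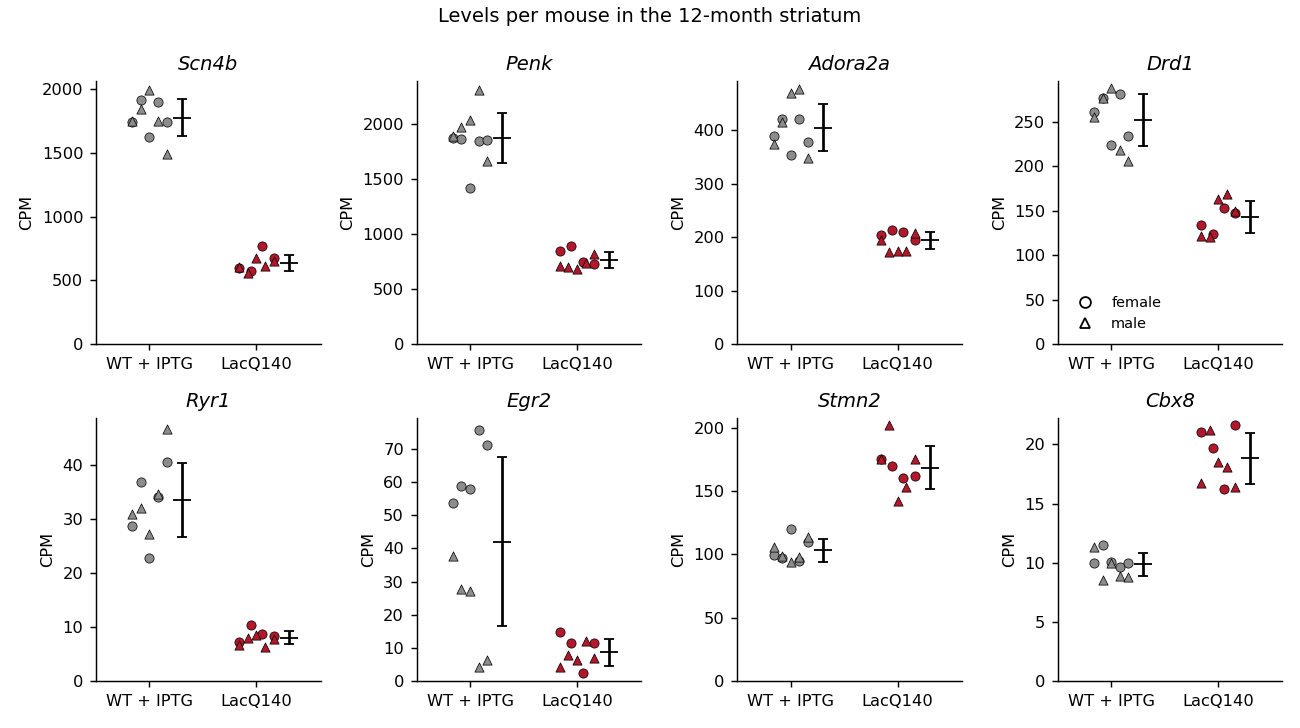
CPM of 8 genes in each mouse of the 12-month striatum (circles females, triangles males), with the mean and SD beside the points. The groups separate for 7 of the genes, whereas *Egr2* was as low in 2 WT + IPTG males as in LacQ140 mice.

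The signalling chain behind the dopamine receptors fell with them. Of 25 genes of the dopamine and cAMP cascade, some of which also mark SPNs, 18 fell and 1 rose, which was *Prkar1b*, a regulatory subunit of protein kinase A named after its value was seen (0.33), with a median of -0.58. Without the 4 libraries 18 fell and 0 rose by edgeR (2 higher at an unadjusted p under 0.05). *Adcy5*, the adenylyl cyclase that both receptor types act on in striatum, was at 748.5 to 941.5 CPM (median 810.6) in LacQ140 and 1362 to 1768 CPM (median 1556) in WT + IPTG mice (log2 fold change -0.91, SE 0.056, adjusted p = 3e-21). *Arpp21* and *Arpp19*, phosphoproteins regulated by cAMP, had log2 fold changes of -0.99 (adjusted p = 3.2e-21, SE 0.061) and -1.14 (adjusted p = 3e-21, SE 0.07). All 3 were separated between the groups. *Ptpn5*, the striatum-enriched tyrosine phosphatase STEP, fell by 0.67 on the log2 scale, from 709.6 to 1157 CPM (median 873.97) to 502.6 to 619.7 CPM (median 549.8). *Gnal*, the G protein α subunit that couples the D1 and adenosine receptors to the cyclase, had an adjusted p of 4.5e-05 but a log2 fold change of -0.25, less than the 20% bound.

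Regulators and subunits of G proteins moved in both directions. Of 21 regulators of G protein signalling, 7 fell and 3 rose (6 and 1 without the 4 libraries). *Rgs9*, which shortens D2 signalling, was at 289.9 to 357.8 CPM (median 324.05) in LacQ140 and 422.8 to 666.7 CPM (median 509.8) in WT + IPTG mice, and *Rgs4* at 339.97 to 502.9 CPM (median 437.9999) and 615.8 to 867.4 CPM (median 798.8), both without overlap. *Rgs14* fell from 104.4 to 174.99 CPM (median 118.5) to 47.005 to 66.8 CPM (median 53.1), while *Rgs19* rose from 8.58 to 11.9 CPM (median 10.2) to 13.4 to 19.2 CPM (median 15.4). Of 31 subunit genes 2 fell and 4 rose (4 and 3 without the 4 libraries, and 4 fell without WT + IPTG M5 alone). Among them *Gng7*, the γ subunit that pairs with Gαolf, had a log2 fold change of -0.48 (adjusted p = 5.9e-11, SE 0.054) and *Gnb5*, the partner of RGS proteins, of -0.52 (adjusted p = 1.1e-12, SE 0.051). The γ subunit genes *Gng4* and *Gng3* moved the other way, *Gng4* from 13.8 to 24.4 CPM (median 17.4) to 28.5 to 44.3 CPM (median 32.999) without overlap and *Gng3* by 0.66, with highest WT + IPTG and lowest LacQ140 mice at 113.7 and 112.99 CPM. Phosphodiesterase genes fell in 6 and rose in 2 of 23 cases (fallen in 6 and risen in 0 without the 4 libraries).

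In the endocannabinoid system, through which SPNs and interneurons dampen their inputs, 2 genes fell and 2 rose of 9. *Cnr1*, the CB1 receptor, was at 93.6 to 118.4 CPM (median 99.99) in LacQ140 and 182.5 to 273.8 CPM (median 216.04) in WT + IPTG mice (log2 fold change -1.10, SE 0.077, adjusted p = 1.1e-18). *Faah*, the hydrolase that degrades anandamide, was higher in every LacQ140 mouse, at 30.4 to 46.6 CPM (median 32.5) against 15.6 to 25.9 CPM (median 17.4) (log2 fold change 0.85, SE 0.09, adjusted p = 1.1e-11). *Cnrip1*, a protein that binds CB1, also rose (0.45), and *Dagla*, the lipase that makes 2-arachidonoylglycerol, fell with overlap (-0.33) and was not called with pooled WT mice, where 1 gene of the list fell. Of 20 neuropeptides and granins, 4 fell and 2 rose, the risen ones being *Nts*, neurotensin (log2 fold change 0.89, SE 0.13, adjusted p = 2.5e-07), and *Tac2*, neurokinin B (log2 fold change 1.69, SE 0.41, adjusted p = 0.0018), both with overlap between the groups. With pooled WT mice *Tac2* was not called, and its log2 difference between WT + IPTG and WT mice was -1.25 (SE 0.43, adjusted p = 0.17 by edgeR).

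Calcium handling and the postsynaptic side fell in part, whereas genes of the release machinery were called at no more than the shares of all expressed genes. The difference between these lists was not tested. Of 23 genes for calcium stores, pumps and calcium-dependent enzymes, 14 fell and 1 rose, *Atp2b4*, a plasma membrane pump named after its value was seen (0.47). Without the 4 libraries 14 fell and 0 rose by edgeR (1 higher at an unadjusted p under 0.05). *Ryr1*, a ryanodine receptor that releases calcium from the endoplasmic reticulum (chromosome 7, 29003344 to 29125179), was at 6.28 to 10.4 CPM (median 7.93) in LacQ140 and 22.8 to 46.7 CPM (median 33.1) in WT + IPTG mice (log2 fold change -2.07, SE 0.13, adjusted p = 1.4e-21). *Ppp3ca*, the catalytic subunit of calcineurin, was at 1118 to 1388 CPM (median 1247) and 1556 to 2205 CPM (median 1908), and *Hpca*, the calcium sensor hippocalcin, at 1079.9 to 1366 CPM (median 1275) and 1697 to 2624 CPM (median 2062). Neither gene overlapped between the groups, and *Camkk2*, a kinase upstream of CaMKI, CaMKIV and AMPK, did not either (log2 fold change -0.63, SE 0.054, adjusted p = 4.1e-15).

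Of 20 postsynaptic scaffolds and kinases 9 fell. By edgeR and by DESeq2 0 rose, and 0 were higher at an unadjusted p under 0.05. *Shank3*, the scaffold of corticostriatal synapses, was at 215.6 to 317.2 CPM (median 260.003) in LacQ140 and 382.2 to 531.96 CPM (median 473.9) in WT + IPTG mice, and its partner *Dlgap3* (SAPAP3) at 356.9 to 466.9 CPM (median 413.5) and 528.8 to 744.2 CPM (median 648.6). For both genes every LacQ140 mouse was below every WT + IPTG mouse. *Dlg4*, encoding PSD-95, fell less (log2 fold change -0.35, SE 0.045, adjusted p = 4.9e-09). Of 28 presynaptic genes 2 rose and 2 fell (7.14% each), beside 7.86% risen and 10.0% fallen of all expressed genes. *Syn1*, a synaptic vesicle phosphoprotein, rose by 0.33 with overlap, and *Sv2a*, a vesicle glycoprotein, was separated between the groups but changed by only 0.21.

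Immediate early genes, which neurons transcribe within minutes of activity, mostly fell. The count was 16 of 24 fallen and 1 risen, *Nr4a2*, a nuclear receptor named after its value was seen (0.89), with a median of -0.75. *Nr4a2* was not called by DESeq2, nor by edgeR in 14 of the 19 fits that left out 1 library each, and over the 19 fits 14 to 19 members fell. *Egr2*, a zinc finger factor of this class, was at 2.29 to 14.8 CPM (median 7.95) in LacQ140 and at 4.11 to 75.8 CPM (median 45.6) in WT + IPTG mice (log2 fold change -2.29, SE 0.33, adjusted p = 1.1e-07), and *Arc*, which acts in AMPA receptor removal, at 86.2 to 352.8 CPM (median 218.1) and 88.95 to 594.3 CPM (median 482.6) (log2 fold change -0.99, SE 0.25, adjusted p = 0.0023). The groups overlapped in both genes, and the 5 WT + IPTG females were above every LacQ140 mouse. *Arc* was at 594.3, 583.5, 585.3, 584.7 and 549.9 CPM in the 5 WT + IPTG females, at 415.4, 282.9 and 305.5 CPM in 3 males, and at 88.95 and 119.4 CPM in WT + IPTG M4 and M5. *Homer1*, a postsynaptic scaffold of the same class whose promoter is shown above, was at 77.6 to 116.6 CPM (median 91.3) and 130.4 to 220.1 CPM (median 179.7) without overlap (log2 fold change -0.93, SE 0.1, adjusted p = 1.2e-10), and *Fos*, the classical member, did not pass the test (log2 fold change -0.37, SE 0.26, adjusted p = 0.47).

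Within females 18 members fell and within males 5, while 0 members passed edgeR's test of the difference between the sexes. At an unadjusted p under 0.05 the effect was more negative in females for 9 of 24 members and more positive for 0. *Egr2* was at 18.9 ± 7.02 CPM (mean ± SD, n = 9) without and 42.1 ± 25.4 CPM (n = 10) with IPTG, and *Arc* at 259.5 ± 39.1 and 410.98 ± 199.9 CPM. With both WT groups pooled as the control, 11 members fell. In edgeR's test of WT + IPTG against WT mice *Egr2* had a log2 difference of 1.15 (SE 0.31, adjusted p = 0.077) and *Arc* of 0.66 (SE 0.25, adjusted p = 0.22), and neither passed. Of the 24 members 2 rose with IPTG in that test, *Egr4* and *Klf4*, which are named after their calls were seen.

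Clock genes also fell, 13 of 19 by edgeR and by DESeq2 (11 with pooled WT mice, 11 without the 4 libraries). By both tools 0 rose, also at an unadjusted p under 0.05 by edgeR. *Npas2*, the partner of BMAL1 in the forebrain, was at 42.03 to 57.7 CPM (median 49.8) in LacQ140 and 72.5 to 94.5 CPM (median 80.1) in WT + IPTG mice (log2 fold change -0.72, SE 0.059, adjusted p = 7e-16). *Ciart*, a repressor of the CLOCK-BMAL1 complex, was at 8.37 to 15.03 CPM (median 11.5) and 19.2 to 31.7 CPM (median 23.5) (log2 fold change -1.11, SE 0.13, adjusted p = 9.8e-11), and the output factor *Hlf* at 113.1 to 149.5 CPM (median 129.5) and 174.9 to 217.4 CPM (median 208.1). None of the 3 overlapped between the groups. *Per1*, which belongs to both lists, overlapped (log2 fold change -0.74, SE 0.12, adjusted p = 4.2e-06), and WT + IPTG M4 and M5 were its lowest WT + IPTG mice, at 100.6 and 114.3 CPM.

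**Figure D4:**
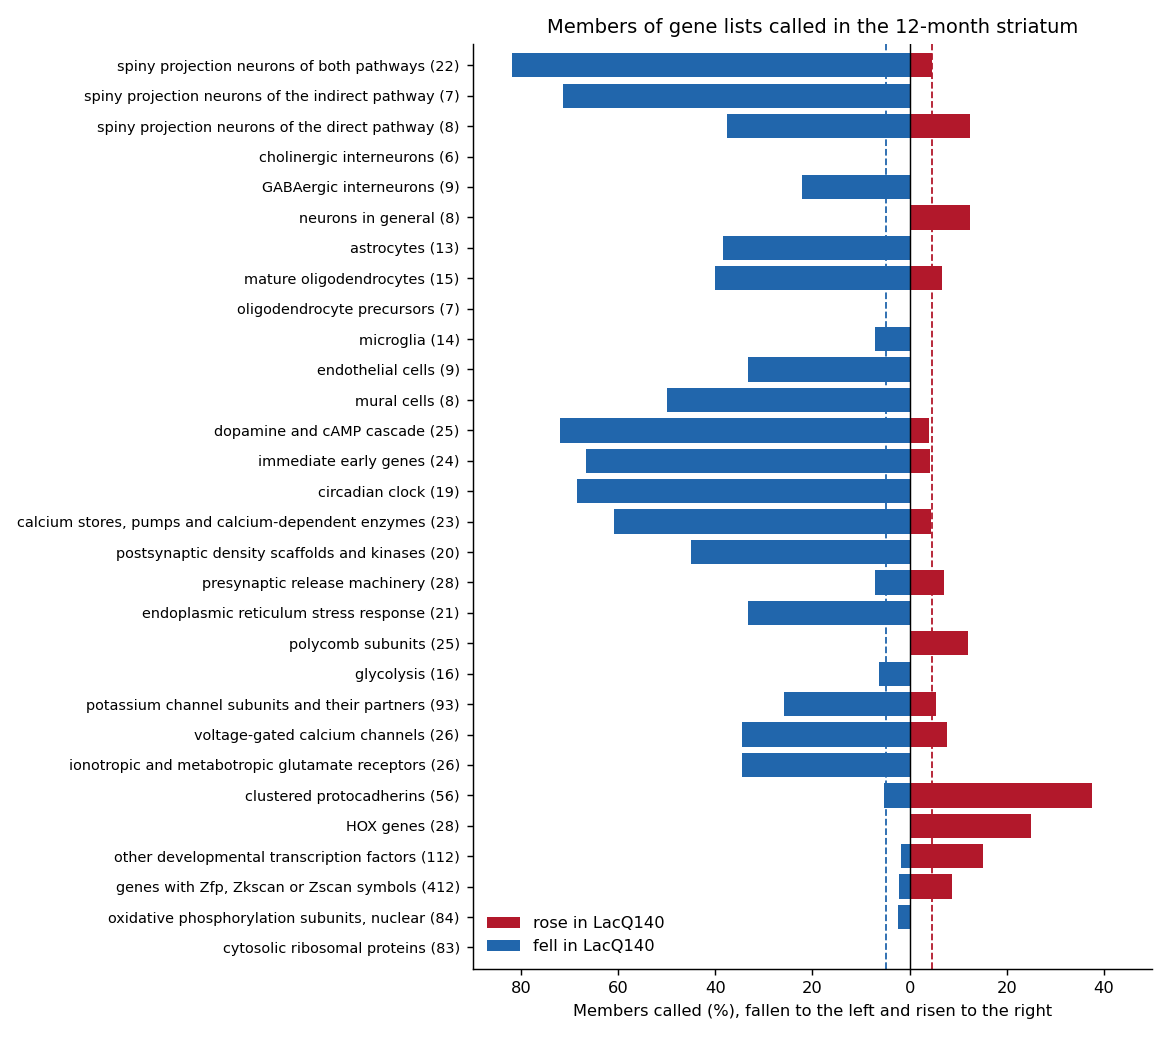
Percent of the members of 30 gene lists that rose (to the right) or fell (to the left) in the 12-month striatum of LacQ140 mice, with the number of members tested in brackets and dashed lines at 4.58% risen and 4.86% fallen, the shares over all genes tested. SPN markers, the cAMP cascade, immediate early, clock and calcium genes extend far to the left, and clustered protocadherins, HOX genes and other developmental factors to the right.

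More potassium and calcium channel genes and more transmitter receptor genes fell than rose. Among members with a mean of at least 1 CPM, 31.1% of potassium and 39.1% of calcium channel genes fell. The fallen shares were 33.3% for glutamate, 21.4% for GABA and 27.8% for serotonin and adrenergic receptor genes. Of all expressed genes 10.0% fell and 7.86% rose. Of 93 potassium channel subunits and partners 24 fell and 5 rose. *Kcnip2*, which sets the surface level of A-type Kv4 channels, was at 198.1 to 256.6 CPM (median 223.8) in LacQ140 and 299.99 to 424.2 CPM (median 356.03) in WT + IPTG mice (log2 fold change -0.69, SE 0.063, adjusted p = 4.1e-14), and *Kcnk2*, the leak channel TREK-1, at 87.3 to 113.5 CPM (median 103.3) and 127.8 to 173.3 CPM (median 148.7). *Kcnh4* and *Kcnab1*, an EAG-type channel and a Kv1 β subunit, fell by 0.82 and 0.57 on the log2 scale. No group overlapped for these 4 genes. Calcium channel subunits fell in 9 and rose in 2 of 26 cases, with *Cacng4* and *Cacnb2* among the fallen (-0.50 and -0.64). Sodium channel genes fell in 2 and rose in 2 of 14 cases, with a median of 0.02. Among them *Scn4b* and *Scn2b*, both β subunits, fell (-1.48 and -0.37), and *Scn9a*, an α subunit best known from sensory neurons, rose (0.81) from a median of 2.5 CPM.

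Glutamate receptor genes fell in 9 of 26 cases. By edgeR and DESeq2 0 rose, with 2 higher at an unadjusted p under 0.05. *Grm4*, a presynaptic group III receptor, was at 43.2 to 71.1 CPM (median 53.7) in LacQ140 and 65.1 to 109.95 CPM (median 93.7) in WT + IPTG mice (log2 fold change -0.76, SE 0.078, adjusted p = 3.9e-12), and *Grin2c*, an NMDA receptor subunit, at 35.6 to 45.8 CPM (median 40.6) and 48.1 to 63.9 CPM (median 56.7) without overlap. *Grm3*, a group II receptor, fell by 0.65 and the kainate receptor gene *Grik2* by 0.37 on the log2 scale. GABA receptor genes fell in 4 and rose in 1 of 19 cases, with a median log2 fold change of 0.08. *Gabrd*, the δ subunit of extrasynaptic receptors, was at 81.9 to 99.7 CPM (median 89.3) and 124.7 to 166.1 CPM (median 133.7) without overlap (log2 fold change -0.61, SE 0.052, adjusted p = 4.4e-15), while *Gabra5*, an α subunit found outside synapses, rose by 0.46 with overlap. Serotonin and adrenergic receptor genes fell in 5 and rose in 1 of 23 cases, with a median of -0.05. *Htr1b*, an autoreceptor and heteroreceptor on axon terminals, was at 25.9 to 45.2 CPM (median 39.05) in LacQ140 and 53.5 to 119.1 CPM (median 95.8) in WT + IPTG mice (log2 fold change -1.31, SE 0.14, adjusted p = 3.5e-11). *Htr2c*, the excitatory 5-HT2C receptor, was the only risen member, at 54.2 to 86.7 CPM (median 66.7) against 33.01 to 48.5 CPM (median 37.9) (log2 fold change 0.81, SE 0.081, adjusted p = 1.5e-12). Both receptors were separated between the groups, in opposite directions.

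The 10 largest decreases were read off among called protein-coding genes with a mean of at least 2 CPM and no overlap between the groups. *Gpx6*, a glutathione peroxidase, was at 0.459 to 1.12 CPM (median 0.814) in LacQ140 and 7.13 to 17.2 CPM (median 10.9) in WT + IPTG mice (log2 fold change -3.97, SE 0.2, adjusted p = 5.7e-26), and *Tmprss6*, a membrane serine protease, at 0.408 to 2.44 CPM (median 1.45) and 3.03 to 15.9 CPM (median 7.82) (log2 fold change -2.71, SE 0.23, adjusted p = 5.8e-15). *Slc4a11*, a borate transporter-like membrane protein (chromosome 2, 130684113 to 130697519) and the next in size, was at 1.51 to 3.44 CPM (median 2.14) and 11.03 to 17.3 CPM (median 14.4) (log2 fold change -2.64, SE 0.13, adjusted p = 5.7e-26). For *Gpx6* and *Slc4a11* the lowest WT + IPTG mouse was more than 2-fold above the highest LacQ140 mouse, whereas the groups came close for *Tmprss6*. *Sec14l3*, a lipid-binding protein (-2.48), was at 0.974 to 1.65 CPM (median 1.18) and 4.22 to 9.28 CPM (median 6.48), and *Ddit4l*, an inhibitor of mTOR signalling, at 5.47 to 8.54 CPM (median 6.76) and 21.4 to 37.1 CPM (median 31.98) (log2 fold change -2.21, SE 0.092, adjusted p = 8.7e-30). *Mafa*, a bZIP factor known from beta cells (-2.33), *Phex*, an endopeptidase (-2.32), *Vwa7* (-2.16), *Ryr1* (-2.07) and *Abi3bp*, a matrix protein (-1.88), complete the 10. Of the 10, 7 were among the genes enriched in striatum. *Ptpn7*, a tyrosine phosphatase that acts on MAP kinases, had a log2 fold change of -1.58 (adjusted p = 9.3e-20, SE 0.11).

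The 10 largest increases were read off in the same way, which favours genes of low level in WT + IPTG mice. The bound of 2 CPM was on the mean over both groups, and *Wt1* and *Dsp* were under it in every WT + IPTG mouse. *Wt1*, a zinc finger factor of kidney and gonad development, was at 3.58 to 5.99 CPM (median 4.9) in LacQ140 and 0.0 to 0.184 CPM (median 0.0757) in WT + IPTG mice (adjusted p = 7.1e-32 by edgeR), and its log2 fold change of 5.70 rests on few counts in WT + IPTG mice. *Sfmbt2*, a polycomb group protein, was at 4.53 to 8.06 CPM (median 6.07) and 1.15 to 2.03 CPM (median 1.47) (log2 fold change 1.94, SE 0.11, adjusted p = 1.3e-22). Every LacQ140 mouse was above every WT + IPTG mouse for both. The next were *Dsp*, the desmosomal protein desmoplakin, at 2.67 to 5.59 CPM (median 3.35) in LacQ140 and 0.59 to 1.8 CPM (median 1.17) in WT + IPTG mice (log2 fold change 1.79, SE 0.19, adjusted p = 2.3e-11), *Rprm*, a cell cycle inhibitor (1.63, and 1.29 without the 4 libraries), and *Kazald1*, a secreted protein that binds insulin-like growth factors (1.56). *Tmc3*, a channel-like membrane protein (1.38), *Tnnt2*, cardiac troponin T (1.31), *Cldn14*, a tight junction claudin (1.30), *Flnc*, a filamin of muscle (1.23), and *Afmid*, kynurenine formamidase (1.11), make up the rest. *Kazald1* was at 5.07 to 6.96 CPM (median 6.36) against 1.71 to 2.94 CPM (median 2.11), and *Tnnt2* at 6.63 to 10.97 CPM (median 9.9) against 2.72 to 5.09 CPM (median 3.9). The iodide transporter gene *Slc5a5* was also higher in every LacQ140 mouse, at 13.4 to 19.5 CPM (median 16.99) against 6.0 to 11.7 CPM (median 8.2) (log2 fold change 1.06, SE 0.089, adjusted p = 3.3e-15).

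Developmental transcription factors, which polycomb complexes hold silent in adult neurons, mostly rose where they were called. Most members had a mean under 1 CPM, where a fall can hardly be seen. Of 39 HOX genes, which pattern the body axis behind the forebrain, 28 had a count, and 7 rose by edgeR (6 by DESeq2, 4 by edgeR with its filter on low counts), all from levels at or near 0 CPM. By both tools 0 fell, also at an unadjusted p under 0.05. Genes this low in WT + IPTG mice could not be seen to fall, so this count does not bear on direction. Summed over the 28 genes, the level was 0.194 to 0.632 CPM in WT + IPTG and 1.92 to 6.16 CPM in LacQ140 mice. *Hoxc4* was at 0.511 to 2.55 CPM (median 2.05) in LacQ140 mice and at 0 to 0.0488 CPM in WT + IPTG mice (adjusted p = 1.3e-21 by edgeR), and *Hoxc5* at 0.511 to 2.29 CPM (median 1.08) against 0 to 0.0678 CPM (adjusted p = 8.2e-19). *Hoxc6* was at 0.0667 to 0.374 CPM in LacQ140 mice and had no count in any of the 10 WT + IPTG mice (adjusted p = 6.6e-11), which allows a level of up to 0.084 CPM (3 counts) in a single library. Each of the 9 LacQ140 mice thus had reads of all 3 genes. The annotated span of *Hoxc5* on chromosome 15 holds *Hoxc6* on the same strand, so that reads of the latter may count for either.

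Of 112 other developmental factors, 17 rose and 2 fell (14 and 1 without the 4 libraries). With the filter of edgeR on low counts 10 rose. Of the 28 with a mean of at least 1 CPM, 5 rose (17.9%) and 1 fell (3.57%), beside 7.86% and 10.0% of all expressed genes. The median log2 fold change of these 28 was 0.0. *Wt1* belongs to this list. *Onecut1*, a homeodomain factor of liver and pancreas development (chromosome 9, 74861921 to 74891781), was at 0.77 to 2.66 CPM (median 2.13) in LacQ140 mice and at 0 to 0.0486 CPM in WT + IPTG mice (adjusted p = 6.6e-25). *Nkx2-3* was at 0.16 to 0.578 CPM (median 0.236) against 0 to 0.0501 CPM (adjusted p = 3.9e-11). *Vax2*, an eye factor, reached only 0.235 CPM and overlapped between the groups (adjusted p = 4.4e-06). Of the 2 that fell, *Tbx3*, named after its value was seen, had a log2 fold change of -0.36.

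Of 25 polycomb genes 3 rose, which is 12.5% of the 24 with a mean of at least 1 CPM, beside 7.86% of all expressed genes. By edgeR and DESeq2 0 fell, with 3 lower at an unadjusted p under 0.05. *Cbx8*, a chromobox subunit of the canonical PRC1 complex whose promoter is shown above, was at 16.2 to 21.6 CPM (median 18.5) in LacQ140 and 8.54 to 11.5 CPM (median 9.96) in WT + IPTG mice (log2 fold change 0.93, SE 0.081, adjusted p = 1.1e-14), without overlap. *Pcgf2*, a PRC1 ring finger subunit, rose by 0.48 with overlap, and *Ezh2*, the methyltransferase of PRC2, had a log2 fold change of 0.17 (adjusted p = 0.26, SE 0.092).

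Clustered protocadherins, adhesion proteins whose combinations give neurons a surface identity, rose in 21 and fell in 3 of 56 cases, with a median of 0.20 (18 and 3 without the 4 libraries). Within females 10 rose and 7 fell, and within males 22 and 2. By edgeR 0 differed between the sexes, with the effect more negative in females for 15 and more positive for 2 at an unadjusted p under 0.05. The 3 fallen became 5 without LacQ140 F5 or M5 and 6 without WT + IPTG M4. *Pcdhb9* was at 18.3 to 22.4 CPM (median 21.4) in LacQ140 and 11.7 to 15.6 CPM (median 14.1) in WT + IPTG mice (log2 fold change 0.60, SE 0.059, adjusted p = 8.5e-13), and *Pcdhb22* and *Pcdhb3* had log2 fold changes of 0.62 and 0.75, all without overlap. The genes are near copies of each other within the cluster and the α and γ genes share exons, so that the split of reads between them is uncertain. Genes with Zfp, Zkscan or Zscan symbols, mostly zinc finger repressors, rose in 36 and fell in 9 of 412 cases. Of the 366 with a mean of at least 1 CPM, 9.84% rose and 2.46% fell, beside 7.86% and 10.0% of all expressed genes, and 33 rose and 5 fell without the 4 libraries. *Zfp488* rose from 4.77 to 7.64 CPM (median 6.32) to 7.78 to 12.3 CPM (median 10.8), and *Zfp180* fell from 87.9 to 135.7 CPM (median 111.1) to 64.3 to 82.1 CPM (median 77.01), both without overlap. *Stmn2*, a microtubule regulator of growing axons, rose from 93.9 to 119.8 CPM (median 98.97) to 142.4 to 202.5 CPM (median 170.1) (log2 fold change 0.71, SE 0.058, adjusted p = 6.2e-16), without overlap.

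Classes of cell surface, matrix and phosphatase genes had calls in both directions. Among members with a mean of at least 1 CPM the risen and fallen shares were 8.82% and 11.8% in protein tyrosine phosphatases, 8.68% and 9.43% in solute carriers and 10.0% each in Eph receptors and ephrins, near the 7.86% and 10.0% of all expressed genes. Dual specificity phosphatases, which switch off MAP kinases, fell in 8 and rose in 3 of 23 cases (5 fell with pooled WT mice), and protein tyrosine phosphatases in 4 and 4 of 38 (2 and 3 without the 4 libraries). Semaphorins and plexins, guidance cues and their receptors, rose in 6 and fell in 4 of 29, but rose in 4 and fell in 6 without the 4 libraries. Eph receptors and ephrins rose in 3 and fell in 2 of 22, collagens in 6 and 3 of 45 and cadherins outside the clusters in 6 and 3 of 35. The 3 fallen collagens became 1 without LacQ140 M4 or WT + IPTG M5 and 6 without WT + IPTG M1, and the 3 fallen cadherins 6 without WT + IPTG M4. Of 72 receptors with Gpr symbols 14 fell and 11 rose, and of 18 muscarinic and nicotinic receptor genes 4 and 2. Solute carriers fell in 31 and rose in 25 of 374 cases. Histone genes, p53 targets and genes of complement and class I presentation were called in 3 of 73, 1 of 13 and 1 of 15 cases, and cytoskeletal genes in 2 of 14, *Stmn2* and the neurofilament partner *Ina*, which fell (log2 fold change -0.40, SE 0.074, adjusted p = 3.5e-05). Without the 4 libraries 1 histone gene and, by edgeR, 0 p53 targets were called (4 lower and 0 higher at an unadjusted p under 0.05).

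Markers of other cells were called in some lists and not in others. General neuronal markers summed to 4581 to 5294 CPM (median 4956) in LacQ140 and 4858 to 5158 CPM (median 5016) in WT + IPTG mice, with overlap, and *Rbfox3*, the antigen NeuN, had a log2 fold change of -0.18 (adjusted p = 0.0037, SE 0.046), under the 20% bound. Of 6 markers of cholinergic interneurons 0 were called by edgeR or DESeq2 and 4 were lower at an unadjusted p under 0.05, while 2 fell without the 4 libraries. The defining gene *Chat*, choline acetyltransferase, was at 30.2 to 36.1 CPM (median 34.1) and 33.6 to 44.4 CPM (median 39.99) (log2 fold change -0.23, SE 0.077, adjusted p = 0.029). Of 9 markers of GABAergic interneurons 2 fell, *Pthlh*, a peptide hormone gene (-0.57), and *Nos1*, the neuronal nitric oxide synthase (-0.29). *Nos1* was not called without LacQ140 F1, F3 or M1 or WT + IPTG F2. Nor was it called with pooled WT mice or with the slope of CPM on transcript length as a covariate. *Pvalb* was at 27.9 to 97.9 CPM (median 61.3) and 39.2 to 137.97 CPM (median 68.7) (log2 fold change -0.31, SE 0.21, adjusted p = 0.45). Of 5 markers of eccentric SPNs only *Col11a1*, a fibrillar collagen gene, was called, and it rose (log2 fold change 0.75, SE 0.18, adjusted p = 0.0011).

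Astrocyte markers fell in 5 of 13 cases, and in 3 without WT + IPTG F3 or with pooled WT mice. None rose by edgeR, against 1 without the 4 libraries, with pooled WT mice and without LacQ140 F5, M2, M3, M4 or M5 or WT + IPTG F1, F3 or M1 (0 by DESeq2, 1 higher at an unadjusted p under 0.05). Their sum was 4142 to 4694 CPM (median 4544) in LacQ140 and 4781 to 5797 CPM (median 5415) in WT + IPTG mice, without overlap. *Slc1a2*, the glutamate transporter GLT-1 was at 1429 to 2019.5 CPM (median 1779) and 1850 to 2522 CPM (median 2375) (log2 fold change -0.38, SE 0.067, adjusted p = 1.2e-05), and *Aldoc*, aldolase C, had a log2 fold change of -0.28 (adjusted p = 3.2e-06, SE 0.046) and was not called without LacQ140 M3, WT + IPTG F3 or WT + IPTG M4 or with pooled WT mice. *Gfap*, the intermediate filament of reactive astrocytes, did not pass the test (log2 fold change 0.19, SE 0.097, adjusted p = 0.23), nor did *Aqp4*, the water channel (log2 fold change -0.16, SE 0.096, adjusted p = 0.34). Of 10 genes of reactive astrocytes only *Serpina3n*, a secreted protease inhibitor, was called, at 18.6 to 31.8 CPM (median 21.2) against 9.66 to 15.9 CPM (median 11.1) without overlap (log2 fold change 0.96, SE 0.11, adjusted p = 4.7e-11).

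Markers of mature oligodendrocytes fell in 6 of 15 cases and rose in 1. *Mal*, a myelin proteolipid, was at 295.5 to 485.1 CPM (median 403.4) against 465.8 to 631.2 CPM (median 527.8) (log2 fold change -0.45, SE 0.061, adjusted p = 2.7e-08). *Opalin*, a myelin protein of the paranodal loop, moved the other way (log2 fold change 0.60, SE 0.12, adjusted p = 0.00013), and *Mbp*, myelin basic protein, did not pass the test (log2 fold change -0.13, SE 0.071, adjusted p = 0.29). Microglial markers fell in 1 of 14 cases, *Tmem119* (-0.32), which was not called with pooled WT mice, with *Cx3cr1* at 60.3 to 82.3 CPM (median 72.5) and 68.05 to 81.2 CPM (median 73.6). Mural cell markers fell in 4 of 8 cases, led by *Tagln*, an actin-binding protein of smooth muscle (log2 fold change -0.52, SE 0.077, adjusted p = 2.1e-07), or in 2 with pooled WT mice, and endothelial markers in 3 of 9 (1 without the 4 libraries, LacQ140 M2 or M4 or WT + IPTG F4, and 5 without LacQ140 M1), led by *Ly6c1* (-0.49). Of 7 markers of oligodendrocyte precursors 0 were called by edgeR or DESeq2 and 1 was higher at an unadjusted p under 0.05. Of 6 fibroblast markers 1 fell, and of 5 ependymal markers 2 rose. Choroid plexus and blood markers, of which 3 of 7 and 5 of 5 fell, had 0 calls by edgeR without the 4 libraries, and those of blood 0 without WT + IPTG M1 alone (1 and 4 lower at an unadjusted p under 0.05). The 3 of 9 cortical excitatory markers that rose became 1 without them.

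Few genes of housekeeping pathways were called. Of 83 ribosomal protein genes, 13 genes of the tricarboxylic acid cycle, 13 mitochondrially encoded genes and 26 genes of lysosome and autophagy 0 were called by edgeR or DESeq2, with 3, 3, 1 and 3 lower and 1, 1, 0 and 8 higher at an unadjusted p under 0.05. Further, 2 of 84 nuclear genes of oxidative phosphorylation fell. In glycolysis 1 of 16 genes fell, in cholesterol synthesis 1 fell and 1 rose of 22, and 1 of 39 proteasome genes rose. Neither of these 2 rises was called without the 4 libraries. In the response to stress of the endoplasmic reticulum 7 of 21 genes fell (2 with pooled WT mice). *Sdf2l1*, a chaperone partner of BiP, was at 4.51 to 12.7 CPM (median 6.68) in LacQ140 and 6.12 to 19.2 CPM (median 12.3) in WT + IPTG mice (log2 fold change -0.76, SE 0.13, adjusted p = 8.3e-06), and the pseudokinase gene *Trib3* fell by 0.86 on the log2 scale. In edgeR's test of WT + IPTG against WT mice 3 of the 21 rose with IPTG, *Sdf2l1* (log2 difference 0.61, SE 0.13, adjusted p = 0.03) and, named after their calls were seen, *Hspa5* and *Pdia4*. Interferon-response genes fell in 6 of 13 cases, which rested on WT + IPTG F3, at 69.3 CPM of *Ifit3* against a group median of 11.2 CPM. Without this mouse 0 fell by edgeR, and 1 was lower and 2 were higher at an unadjusted p under 0.05. Of 15 heat shock genes 5 fell (1 with pooled WT mice, 3 without the 4 libraries, WT + IPTG F1 or WT + IPTG F5), among them *Hspb1*, a small heat shock protein (log2 fold change -0.67, SE 0.13, adjusted p = 8.8e-05). In edgeR's test of WT + IPTG against WT mice 4 of the 15 rose with IPTG, *Hspa1a*, *Hspa1b*, *Hspb1* and *Bag3*, the last named after its call was seen.

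Among genes of CAG repeat instability and DNA mismatch repair, 2 of 13 genes rose (15.4%, beside 7.86% of all expressed genes). At an unadjusted p under 0.05, 11 were higher. *Rrm2b*, a subunit of ribonucleotide reductase named after its value was seen, rose by 0.28. *Msh3*, which recognises loops in repeats, had a log2 fold change of 0.13 (adjusted p = 0.067, SE 0.047). Among neurotrophic factors and receptors 5 of 15 fell, including *Ntrk3*, the receptor of neurotrophin 3 (-0.49), *Gdnf* (-0.63) and *Sort1*, a sorting receptor of neurotrophin precursors (-0.31). *Bdnf* rose by 1.55 with LacQ140 M2 at 6.13 CPM against a group median of 0.68, and was not called without the 4 libraries (0.53).

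The called genes also differed by level, chromosome and gene type. Of genes with a mean over 100 CPM, 16.9% fell and 2.21% rose (2131 genes), whereas of genes at 1 to 10 CPM 10.2% fell and 15.3% rose (4473 genes). On the X chromosome 14.3% of 495 genes rose and 5.05% fell, with a median log2 fold change of 0.045 in females and 0.106 in males. The risen shares of the autosomes lay between 5.38% and 11.1%. Of genes with the lowest CpG ratio of their promoters (the lower 25% of genes) 10.2% rose and 14.8% fell, against 5.89% and 6.8% of the upper 25%. Genes spanning at least 60.5 kb fell in 13.6% of cases, which was 16.2% in females and 10.4% in males (risen 4.02% and 9.87%). The slope of log2 CPM on transcript length was -0.0997 to -0.1798 in LacQ140 and -0.0848 to -0.1023 in WT + IPTG females. In males it was -0.0562 to -0.1732 and -0.1004 to -0.209. With this slope as a covariate 12.7% fell, and its part in the difference between the sexes was not tested.

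Among expressed non-coding genes, lincRNAs rose in 49 and fell in 33 cases (17.2% and 11.6%). Without the 4 libraries these shares were 11.2% and 9.12%, within females 15.8% and 7.72%, and within males 7.72% and 10.5%. Antisense genes rose in 24 and fell in 30 of 211. Of 36 long non-coding RNAs from bidirectional promoters, 9 rose and 0 fell by edgeR, with 1 fallen by DESeq2 and 2 lower at an unadjusted p under 0.05. Within females 13 rose and 1 fell and within males 3 rose and 0 fell, and 0 differed between the sexes by edgeR (6 more positive and 1 more negative in females at an unadjusted p under 0.05). *Crnde*, a long non-coding RNA beside *Irx5* (chromosome 8, 92326033 to 92356120), was at 1.9 to 2.95 CPM (median 2.2) in LacQ140 and 0.157 to 0.47 CPM (median 0.395) in WT + IPTG mice (log2 fold change 2.64, SE 0.18, adjusted p = 2.5e-19). *Emx2os*, antisense to the forebrain factor gene *Emx2*, was at 4.23 to 6.08 CPM (median 4.65) and 1.15 to 2.48 CPM (median 1.72) (log2 fold change 1.53, SE 0.12, adjusted p = 6.1e-17). *Abhd11os*, antisense to the hydrolase gene *Abhd11*, moved the other way, at 2.06 to 6.46 CPM (median 4.09) and 15.9 to 29.5 CPM (median 19.4) (log2 fold change -2.30, SE 0.15, adjusted p = 1e-19). *Gm39043* and *Gm15721* fell by 2.05 and 1.46 on the log2 scale. The groups did not overlap for any of the 5. Reads of antisense genes and their partners could not be told apart where counting did not use strand, which is not given in the sources used here.

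At 6 months the same comparison, of 10 mice a group, called 2840 of 35808 genes (7.93%). The counts of the ages were deposited separately, so that age and any batch cannot be told apart in what follows. A test of the difference between the ages called 619 of 34902 genes (1.77%), with the 12-month effect the more negative in 427 and the more positive in 192. Among the genes enriched in striatum 69 of 207 had a more negative effect at 12 months and 0 a more positive one by edgeR (1 at an unadjusted p under 0.05). *Scn4b* had log2 fold changes of -0.69 at 6 and -1.48 at 12 months, a difference of -0.79 (SE 0.099, adjusted p = 1e-06). For *Kazald1* the values were 0.10 and 1.56 and for *Emx2os* 0.27 and 1.53, so that neither was called at 6 months and both were at 12 (differences of 1.45 and 1.26, adjusted p = 1.1e-08 and 3.2e-07 by edgeR).

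Among immediate early genes, 3 members rose at 6 months and 1 fell, and the difference was called as more negative at 12 months in 9 of 24 genes. *Fos* had risen at 6 months, to 29.2 ± 4.97 CPM (mean ± SD, n = 10) from 14.5 ± 2.66 CPM (adjusted p = 0.00025 by edgeR). Clock genes fell in 3 cases at 6 months and were called as more negative at 12 months in 8 of 19. In contrast, *Cbx8* had risen by 0.93 by 6 months, close to its 12-month value, and 0 polycomb genes were called for the difference by edgeR (2 more positive and 3 more negative at an unadjusted p under 0.05). Markers of mature oligodendrocytes fell in 10 of 15 cases at 6 months, against 6 at 12 months, with the effect more positive at 12 months in 2.

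In the cortex of 10 LacQ140 and 10 WT + IPTG mice of 12 months, 31 of 34493 genes (0.0899%) were called. The difference between striatum and cortex, tested within mice that had both tissues, was called for 1205 of 34338 genes (3.51%), with the striatal effect the more negative in 802 and the more positive in 403. Of the SPN markers of both pathways 16 of 22 were in the first class, of the cAMP cascade 17 of 25, and of immediate early genes 12 of 24. *Ryr1* had log2 fold changes of -2.07 in striatum and 0.21 in cortex (difference -2.29, SE 0.18, adjusted p = 2.8e-11 by edgeR). *Hrk*, a BH3-only inducer of apoptosis, was at 18.8 to 35.9 CPM (median 21.9) in LacQ140 and 47.4 to 70.3 CPM (median 56.2) in WT + IPTG striatum, without overlap, and had -1.29 in striatum and 0.13 in cortex. *Mal* is an example of the contrary, with -0.45 in striatum and -0.49 in cortex (adjusted p = 0.0018 there by edgeR).

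**Figure D5:**
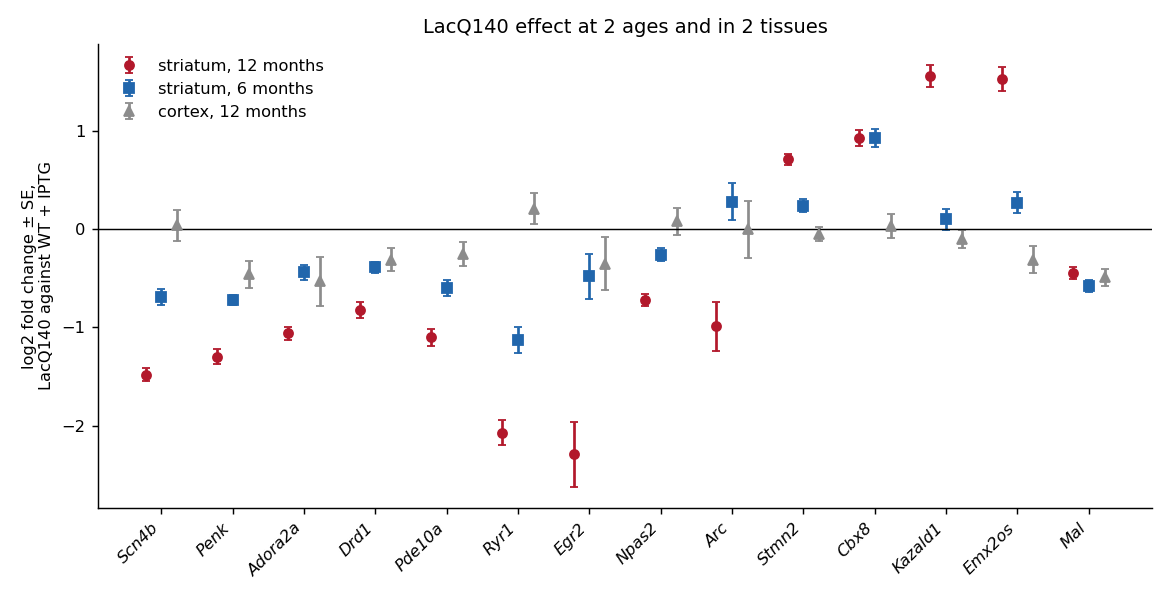
Log2 fold change of LacQ140 over WT + IPTG mice, with its SE, for 14 genes in the striatum at 12 months (red circles), the striatum at 6 months (blue squares) and the cortex at 12 months (grey triangles). *Scn4b* and *Ryr1* are farthest from 0 in the 12-month striatum and near 0 in cortex, *Cbx8* stands at close values at both ages, and *Mal* is negative in all 3.

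Between females and males the effect differed in 2 of 35386 genes (0.00565%), the paralogs *Hspa1a* and *Hspa1b*, both inducible HSP70 genes. *Hspa1b* was at 1.34 to 5.33 CPM (median 3.41) in LacQ140 and 1.15 to 25.1 CPM (median 7.28) in WT + IPTG mice, and its log2 fold change was -2.02 in females and 0.31 in males (difference -2.33, SE 0.44, adjusted p = 0.033 by edgeR). Reads of the pair cannot be told apart with certainty, and with only the LacQ140 and WT + IPTG libraries in the fit 0 genes were called for the difference by edgeR (1276 more positive and 1509 more negative in females at an unadjusted p under 0.05). For *Scn4b* the values were -1.45 and -1.51, and for *Penk* -1.14 and -1.44. Among the genes enriched in striatum 104 fell within females and 134 within males. The males include LacQ140 M2, with the lowest sum of shared SPN markers (8988 CPM) and the highest of cortical markers (368.3 CPM). The part of this library in the difference between the sexes was not tested. Of these genes 0 were called for the difference by edgeR, and at an unadjusted p under 0.05 the effect was more positive in females for 44 and more negative for 3, against 1627 and 1662 over all genes tested.

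The levels in the groups with lowered m*Htt*, of 9 or 10 mice each, are given for 3 leading genes as mean ± SD, without a test. *Scn4b* was at 635.7 ± 64.6 CPM in LacQ140, 809.2 ± 59.1 in LacQ140_8M, 961.3 ± 79.4 in LacQ140_2M, 925.7 ± 149.5 in LacQ140_A and 1775 ± 146.2 in WT + IPTG mice. The LacQ140_2M and LacQ140_A means differ by less than either SD. *Onecut1* reached 2.01 ± 0.659 and 2.04 ± 0.606 CPM in LacQ140 and LacQ140_8M mice, which differ by less than their SDs, but was at 0.823 ± 0.159 and 0.354 ± 0.211 CPM in LacQ140_2M and LacQ140_A mice. *Cbx8* was at 18.8 ± 1.48 CPM in LacQ140_8M and 14.8 ± 1.67 CPM in LacQ140_A mice, against 9.86 ± 0.981 CPM in WT + IPTG mice.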

How the data were processed

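Striatum and cortex of single mice were flash frozen, total RNA was extracted with a Qiagen kit, and libraries were sequenced on a NovaSeq as paired-end reads. The authors deposited expected counts (estimated counts that need not be whole) per gene, made from the reads of each library and not normalised, of which 26.12% of those above 0 in the 12-month table are not whole (tolerance 0.001). Per the labels the build was GRCm38. The aligner, the counter, the annotation and whether strand was used are not given in the sources used here. Of 54532 gene identifiers 54495 matched GENCODE vM21, which gave symbols and positions.

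Counts were rounded. CPM values that would round to a whole number are printed with further decimals, which carry no added precision. The main test was the quasi-likelihood F-test of edgeR 4.0.16 (R 4.3.3) with TMM factors on genes with a summed count of at least 1 in the 57 libraries of the 12-month striatum, whose 6 groups share 1 estimate of the spread. The contrast was LacQ140 (9 mice) minus WT + IPTG (10 mice), called at a Benjamini-Hochberg adjusted p under 0.05 and a change of at least 1.2-fold in either direction. The SE is the absolute log2 fold change divided by the root of F. The differences of the effect between ages (with an age term), tissues (with mouse as a block) and sexes were interaction contrasts under the same bound. Totals were 33292057 to 50478438 counts in these libraries, and counting error is small beside the spread between mice except for genes near 0 CPM.

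The 68 gene lists, the members named and the comparison itself were chosen with earlier results of these data known, so that no count over a list is independent evidence of its direction. Lists were described by counts and medians, with no set test. Genes were named by rule: *Htt*, the 10 largest changes in each direction (called, protein coding, mean of at least 2 CPM, no overlap), up to 4 members with the smallest p and the defining members of each list described, the 5 non-coding genes with the smallest p, and up to 6 genes of each interaction test; other genes are marked as named after their values were seen, and some genes that the rule names are not reported here. No 2 libraries agreed within sampling noise (81 pairs within the groups, smallest chi-square per degree of freedom 6.15). The fit was tested on simulated data of 31267 genes, where 91% of genes changed 1.5-fold and 98% of those changed 2-fold were recovered for the main comparison and 16 unchanged genes were called. Alternatives were DESeq2 1.42.0, other filters, scalings, covariates, controls and libraries left out. Promoter sequences are from RefSeq (GRCm38.p6). Figures were drawn with matplotlib 3.10.9.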

Additional observations from a re-analysis of the deposited data

Results flagged for a closer look

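Of 317 groups of mice over the named genes, 27 had a highest or lowest mouse far from the others of its group, where chance gives about 5% of groups. LacQ140 M2, the library with the highest sum of cortical markers, was the outlying mouse for *Rprm* (42.3 CPM, next mouse 21.9), *Tac1* (174.7 CPM, next mouse 208.6), *Cux2* (34.9 CPM, next mouse 26.4), *Neurod2* (12.1 CPM, next mouse 1.47), *Slc17a7* (286.4 CPM, next mouse 17.2), *Cnrip1* (45.3 CPM, next mouse 36.2) and *Bdnf* (6.13 CPM, next mouse 1.0). Among the other LacQ140 mice, M4 stood apart for *P2ry12* (37.1 CPM, next mouse 30.6), a microglial receptor, and M3 for *Scn9a* (6.86 CPM, next mouse 4.74). In WT + IPTG mice F1 stood apart for *Hspa1b* (25.1 CPM, next mouse 13.5). WT + IPTG F3 did for *Kazald1* (2.94 CPM, next mouse 2.24), *Cux2* (25.99 CPM, next mouse 18.8) and *Ifit3* (69.3 CPM, next mouse 22.7). WT + IPTG F5 did for *Neurod2* (2.38 CPM, next mouse 0.758). WT + IPTG M1 did for *Hbb-bs* (836.2 CPM, next mouse 220.05), *Sv2a* (464.1 CPM, next mouse 430.7) and *Hoxc5* (0.0678 CPM, next mouse 0.0281). WT + IPTG M2 did for *Hoxc4* (0.0488 CPM, next mouse 0.0226). WT + IPTG M4 did for *Pdyn* (251.6 CPM, next mouse 202.3), *Ly6c1* (77.7 CPM, next mouse 56.9), *Nkx2-3* (0.0501 CPM, next mouse 0.0226), *Vax2* (0.0251 CPM, next mouse 0.0) and *Abhd11os* (29.5 CPM, next mouse 22.1). WT + IPTG M5 did for *Col11a1* (4.35 CPM, next mouse 2.38), *Tac2* (8.0 CPM, next mouse 3.29), *Grm4* (65.1 CPM, next mouse 87.8) and *Slc5a5* (11.7 CPM, next mouse 8.62). Their part in the fold changes was tested only by leaving out each library in turn and LacQ140 M2 and WT + IPTG F5, M1 and M2 together.

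The effect differed between groups of mice in 3 tests by edgeR. Between 12 and 6 months 619 genes were called, among them *Kazald1* (1.45), *Gpx6* (-1.86), *Slc4a11* (-1.23), *Scn4b* (-0.79), *Emx2os* (1.26) and *Abhd11os* (-1.39), each as the 12-month minus the 6-month log2 fold change. Between striatum and cortex 1205 were called, among them *Ddit4l* (-1.84), *Ryr1* (-2.29), *Scn4b* (-1.56), *Egr2* (-1.81), *Gm19410* (-1.44) and *Hrk* (-1.48), as striatum minus cortex. *Gm19410* is a predicted gene, and *Ddit4l* and *Hrk* act in mTOR signalling and apoptosis. Between females and males 2 were called, *Hspa1b* (-2.33) and *Hspa1a* (-1.43), as females minus males, and WT + IPTG F1 is the highest mouse of its group for *Hspa1b*.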

How the results depend on the processing

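The 3340 calls became 3201 by DESeq2 (3154 kept), 3375 with the filter of edgeR on low counts, 3344 with the size factors of DESeq2, 3354 with sex as a covariate, 3109 with only the LacQ140 and WT + IPTG libraries, 3148 with both WT groups pooled (2615 kept), 3499 with the slope of CPM on transcript length as a covariate, 3291 without the 77 genes called between WT + IPTG and WT, and 4957 without a bound on the fold change. With the sex and replicate number of the labels as a replicate block 3237 were called, but same-numbered mice shared only a number: 4 of 9 pairs correlated over 0.1 (-0.168 to 0.273), and 1 LacQ140 library correlated best with its own number. Leaving out each of the 19 libraries gave 3089 to 3565 calls, and 1 call turned its direction, without LacQ140 M2.

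The 619 calls between the ages were 878 with the filter, 643 with size factors, 640 with sex as a covariate and 631 without the bound; the 1205 between the tissues were 1330, 1169, 1135 without the mouse block and 1205. The 2 calls between the sexes were 0 with only the LacQ140 and WT + IPTG libraries and 0 to 10 with each library left out. Of the genes at least 1 log2 unit higher in striatum 51.2% fell, against 63.3% at a threshold of 2. Over the lists 3776 counts stayed within 1.5 times and the rest moved further.

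Of 159 named genes 138 were called, and in 13 the call was lost under some alternative: *Nos1*, *Aldoc*, *Tmem119*, *Ttr*, *Cux2*, *Neurod2*, *Hbb-bs*, *Tac2*, *Dagla*, *Hspa1b*, *Bdnf*, *Ifit3* and *Hspa1a*. *Slc17a7*, the vesicular glutamate transporter of cortical neurons, which was not called (1.21), turned to -1.24 without LacQ140 M2 and to -0.71 without the 4 libraries named in the report; its range with each library left out was -1.24 to 1.83. Genes near 0 CPM in WT + IPTG mice, such as the HOX genes, have no fold change that the depth can fix.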

Other observations

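Of 265 genes at least 2 log2 units higher in the cortex than in the striatum of WT mice without IPTG, 54 rose and 8 fell in the striatum of LacQ140 mice, with a median log2 fold change of 0.31. Without the 4 libraries that stand apart 23 rose and 6 fell, with a median of 0.11. At 6 months 6 rose and 28 fell. Within females at 12 months 11 rose and 3 fell, with a median of 0.00, and within males, the sex of LacQ140 M2, 61 rose and 3 fell, with a median of 0.55. The median difference, female minus male, was -0.44. The part of cortical RNA in the remaining libraries was not tested.

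Genes with Zfp, Zkscan or Zscan symbols were called at both ages. At 6 months 93 rose and 25 fell of 412, beside 1423 and 1417 of all 35808 genes tested at that age, and at 12 months 36 rose and 9 fell. The difference between the ages was called as more positive at 12 months in 4 and as more negative in 9 of them. Within females at 12 months 23 rose and 12 fell, and within males 49 and 8. By edgeR 0 differed between the sexes, with 15 more positive and 53 more negative in females at an unadjusted p under 0.05. HOX genes rose in 1 case at 6 months and in 7 at 12 months, and 0 were called by edgeR for the difference between the ages (2 more positive and 1 more negative at 12 months at an unadjusted p under 0.05). *Hoxc4* was at 1.56 ± 0.781 CPM (mean ± SD) in LacQ140, 1.13 ± 0.449 in LacQ140_8M, 0.121 ± 0.0744 in LacQ140_2M and 0.0688 ± 0.0565 CPM in LacQ140_A mice of 12 months.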
